A study of Mus musculus with 10 samples.

Results

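Transcripts of 7 antiviral effector genes of the mouse, namely Oas1a, Oas2, Oas3, Oasl1, Oasl2, Mx1, and Mx2, were followed in keratinocytes and CD8+ T cells that had been kept apart or brought together. The genes were identified by name in the gene table of every library, and all 7 were found among the 25814 genes listed. RNA had been sequenced from 10 libraries, which fall into 5 groups of 2. All cells came from C57/B6 mice. Primary keratinocytes, the epithelial cells of the epidermis, were prepared from the tails of adult animals and were cultured alone or with splenic CD8+ T cells, which were washed off before the keratinocytes were collected. The T cells of all 3 T-cell groups had been isolated with CD8 microbeads and pre-activated for 1 d with Abs against CD3 and CD28, so that no resting T cells were included. Activated T cells had no further culture by their labels. T cells in mixed medium spent a further 1 d in the medium of the co-culture, and co-cultured T cells a further 1 d together with keratinocytes. The labels of the T cells give 1 d for the co-culture and the design text of the series 1 h. For the sequenced keratinocytes the published study gives 1 d. The medium of the second T-cell group is named keratinocyte medium in the labels and a mix of SFM and X-vivo medium in the methods of the study. The number of mice behind a library was not given in the sources used here, and p-values therefore measure the spread between libraries, which may be technical.

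2′-5′ oligoadenylate synthetases (OAS) are enzymes that bind double-stranded RNA and join ATP into short 2′-5′-linked oligoadenylates. These act as messengers that lead to the decay of viral and cellular RNA. Oas1a, Oas2, and Oas3 code for synthetases with a rising number of OAS units, whereas Oasl1 and Oasl2 code for OAS-like proteins that end in ubiquitin-like domains. Oasl2 has kept synthetase activity and Oasl1 has lost it and is known as an inhibitor of Irf7 translation. Mx1 and Mx2 belong to the dynamin-like GTPases that trap viral nucleoproteins, and C57BL/6 mice are known to carry defective alleles of both. All of these genes are classical targets of type I and type III interferons, which act on interferon-stimulated response elements (ISRE) in promoters, and several respond to IFN-γ as well.

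The members lie in 3 places of the mouse genome (coordinates of the deposited tables, GRCm38, identical to those of GENCODE vM21 for all 7). Oasl2 (chr5:114896936-114912234, plus strand, 16 annotated exons) and Oasl1 (chr5:114923240-114937915, plus strand, 9 exons) are neighbours, 11005 bases apart. Farther along chromosome 5 and on the minus strand lie Oas2 (chr5:120730333-120749853, 15 exons), Oas3 (chr5:120753098-120777661, 18 exons), and Oas1a (chr5:120896256-120907521, 7 exons). Mx1 (chr16:97447035-97462907, minus strand, 24 exons) and Mx2 (chr16:97535308-97560900, plus strand, 21 exons) share chromosome 16, and Mx2 is annotated as a polymorphic pseudogene.

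The 250 bases upstream of the transcription start are shown for the 4 members with an entry in the promoter table used here (RefSeq, GRCm38.p6), since they bear on the question which of these genes hold a binding motif of interferon-activated factors near their start. Oas2, Mx1, and Mx2 had no entry. Capitals mark matches to the ISRE core (GAAA, any 2 bases, and GAAA again) on either strand, and each sequence is written 5′ to 3′ on the strand of its gene.
Oas1a (chr5:120907526-120907775, minus strand): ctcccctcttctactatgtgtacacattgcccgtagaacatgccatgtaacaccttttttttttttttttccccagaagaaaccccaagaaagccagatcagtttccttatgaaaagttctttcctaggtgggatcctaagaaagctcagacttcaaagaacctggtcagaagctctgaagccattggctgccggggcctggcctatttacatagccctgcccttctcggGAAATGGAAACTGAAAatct
Oas3 (chr5:120777660-120777909, minus strand): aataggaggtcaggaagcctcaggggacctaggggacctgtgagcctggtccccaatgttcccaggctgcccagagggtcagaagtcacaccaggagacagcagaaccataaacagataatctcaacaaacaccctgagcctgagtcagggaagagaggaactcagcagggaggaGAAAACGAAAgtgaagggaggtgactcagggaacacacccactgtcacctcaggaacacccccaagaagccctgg
Oasl1 (chr5:114922990-114923239, plus strand): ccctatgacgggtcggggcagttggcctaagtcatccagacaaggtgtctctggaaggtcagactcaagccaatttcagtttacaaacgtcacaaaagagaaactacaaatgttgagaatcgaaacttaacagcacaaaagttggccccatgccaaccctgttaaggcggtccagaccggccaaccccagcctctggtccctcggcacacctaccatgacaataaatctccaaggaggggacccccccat
Oasl2 (chr5:114896684-114896933, plus strand): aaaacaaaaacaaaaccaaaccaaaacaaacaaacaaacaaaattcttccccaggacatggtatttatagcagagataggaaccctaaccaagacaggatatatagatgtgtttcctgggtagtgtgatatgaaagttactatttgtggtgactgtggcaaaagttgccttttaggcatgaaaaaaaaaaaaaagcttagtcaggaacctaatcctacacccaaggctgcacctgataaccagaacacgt

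Oas1a held 2 matches to the ISRE core, from -20 to -11 and from -14 to -5 relative to the start, which overlap each other. Oas3 held 1 match, from -75 to -66. The windows of Oasl1 and Oasl2 did not hold these letters. Of 32851 promoter windows of the same length, 978 (2.98%) held at least 1 match. The palindromic core of the GAS element (TTC, any 3 bases, and GAA), a motif of the response to IFN-γ, was found in the Oas1a window only among these 4, from -98 to -90, and in 2306 (7.02%) of all windows. A match is a description of the letters and was not tested as a binding site.

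Between 12864931 and 18019609 reads were counted on exons per library, and 3 reads on a member corresponded to 0.0323 to 0.112 RPKM (reads scaled to exon length and to the mapped reads of the library), depending on the gene and the library. Such floors cover counting error only, because the reads carried no molecular identifiers and may be copies. Markers of keratinocytes fitted the labels, with summed levels of 13531 to 18648 RPKM over 8 genes in the keratinocyte libraries and of 5.72 to 7.98 RPKM in the 4 libraries of activated and mixed-medium T cells. They stood at 54.1 and 100.2 RPKM in co-cultured T cells. Cd8a, the defining marker of the T cells used, stood at 0.525 and 1.16 RPKM in co-cultured keratinocytes, which is 0.202% and 0.446% of its mean in co-cultured T cells. Cd8b1 went with Cd8a, at 0.799 and 2.00 RPKM in these libraries. Cd3g, by contrast, reached 34.8 and 126 RPKM in the keratinocyte cultures to which no T cells had been added, compared with 44.2 and 247 RPKM after co-culture. For Cd4, on the same marker list, replicate 1 rose from 11.4 to 15.0 RPKM with co-culture, and replicate 2 from 43.5 to 84.5 RPKM. Libraries of T cells spanned 16.8 to 102 RPKM of Cd4, the co-cultured ones being at 64.6 and 62.0 RPKM. The low share of Cd8a thus does not hold for the whole list. The summed level of the 8 T-cell markers was 110 and 434 RPKM in keratinocytes alone and 142 and 778 RPKM after co-culture, in both groups higher in replicate 2, and its part in the results was not tested. In bulk RNA, fewer cells of a type and less RNA per cell cannot be told apart.

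To see how the effectors differed after co-culture, keratinocytes from co-culture were compared with keratinocytes alone. The methods of the study give a mix of SFM and X-vivo medium for all co-cultures. No library of keratinocytes alone is labelled as kept in this mix. Contact with T cells and medium therefore cannot be told apart in this comparison. Every member with reads in these libraries, 6 of 7, was higher in both co-cultured libraries than in both libraries of keratinocytes alone. Oasl2 stood far apart from the others with a 298-fold difference of the means, from a level near the detection floor. Oas1a and Oas3 were 3.19 and 2.58 fold higher and reached the highest levels next to Oasl2, whereas Oasl1, Oas2, and Mx1 remained low. Of 12515 genes tested, 19.8% were higher in both co-cultured libraries without overlap, as were the 5 members that had enough reads for a test. Oas2, Oasl1, and Oasl2 had enough reads only through the co-cultured libraries. Their being higher was thus favoured by the filter, and the 5 members cannot be weighed against the share of all genes. At an adjusted p under 0.05 in edgeR's quasi-likelihood test (Benjamini-Hochberg), none of these 5 members and 0% of all genes were called.

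Oasl2, the OAS-like synthetase, was counted with 2 and 4 reads in keratinocytes alone (0.0327 and 0.0729 RPKM) and with 1200 and 368 reads in co-cultured keratinocytes (24.5 and 6.92 RPKM). The groups did not overlap, although replicate 1 of the co-culture was far above replicate 2. The means were 0.0528 ± 0.0284 and 15.7 ± 12.4 RPKM (SD, n = 2). The reads pooled over libraries gave a ratio of 297, with a 95% interval of 136 to 810 for counting error only. The fitted log2 fold change was 8.20 ± 0.94 (SE) with an adjusted p of 0.434. This call depended on the method. With DESeq2, which called 1.49% of all genes, the adjusted p was 8.23e-16, without the filter on low counts (0.0695% called) 0.0409, and in a fit of all 10 libraries (0.0299% called) 0.033. Without replicate 1 of the co-cultured keratinocytes it was 0.00595 (8.88% called) and without replicate 2 0.00295 (0.163% called), at log2 fold changes of 7.12 and 8.81. Without replicate 1 or 2 of the keratinocytes alone, the adjusted p was 1 and 0.632 (edgeR), at 7.70 and 8.85. Each of these 4 fits left 1 library in a group, which was assumed to vary like the other group. All Oasl2 reads mapped uniquely, and 137 and 32 of them spanned exon-exon junctions in the co-cultured libraries, compared with none in keratinocytes alone. In co-cultured T cells Oasl2 stood at 0.407 and 0.614 RPKM, below both co-cultured keratinocyte libraries.

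Among the synthetases, Oas1a had 1.93 and 4.92 RPKM in the cultures without T cells, compared with 8.94 and 12.9 RPKM after co-culture. Replicate 2 was the higher library in both groups, and the groups did not overlap. Its log2 fold change was 1.75 ± 0.61 (SE), at an adjusted p of 0.658 (edgeR). Oas3, the largest of the synthetases, had 3.12 and 5.19 RPKM without and 14.9 and 6.56 RPKM with co-culture. Here replicate 1 of the co-culture was clearly above the other 3 libraries, while replicate 2 exceeded the higher control library only slightly. The log2 fold change of Oas3 was 1.41 ± 0.51 at the same adjusted p of 0.658. In co-cultured T cells both genes were read at levels within or close to this range, at 6.86 and 11.9 RPKM for Oas1a and at 13.3 and 6.00 RPKM for Oas3, and the part of T-cell RNA in these 2 differences was not tested.

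Oas2 and Oasl1 were low in all libraries. Oas2 was counted with 6 and 14 reads in keratinocytes alone and with 49 and 16 reads in co-cultured keratinocytes (0.0772, 0.201, 0.787, and 0.237 RPKM). The second co-culture library thus exceeded the second control library by only 2 reads. The log2 fold change was 1.89 ± 1.07 (SE). Oasl1, the OAS-like protein without synthetase activity, was counted with 2 and 9 reads in keratinocytes alone and with 46 and 14 reads in co-cultured keratinocytes (0.0478, 0.240, 1.37, and 0.385 RPKM), at a log2 fold change of 2.61 ± 1.26. The adjusted p was 0.658 for both (edgeR). The 4 genes Oas2, Oas3, Oasl1, and Oasl2 had in common that replicate 1 of the co-culture was their highest keratinocyte library.

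Mx1 and Mx2, the dynamin-like effectors, did not pass the filter on low counts in the keratinocyte fit. Mx1 was counted with 1 and 0 reads in keratinocytes alone and with 3 and 13 reads in co-cultured keratinocytes. The ratio of the pooled reads was 18.2, with a counting interval of 2.82 to 762. Without the filter, the log2 fold change of Mx1 was 3.96 ± 2.44 (SE) at an adjusted p of 0.766 (edgeR). Mx2 was counted with 0 reads in all 4 libraries, which allows up to 0.0509 to 0.0635 RPKM.

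**Figure D1:**
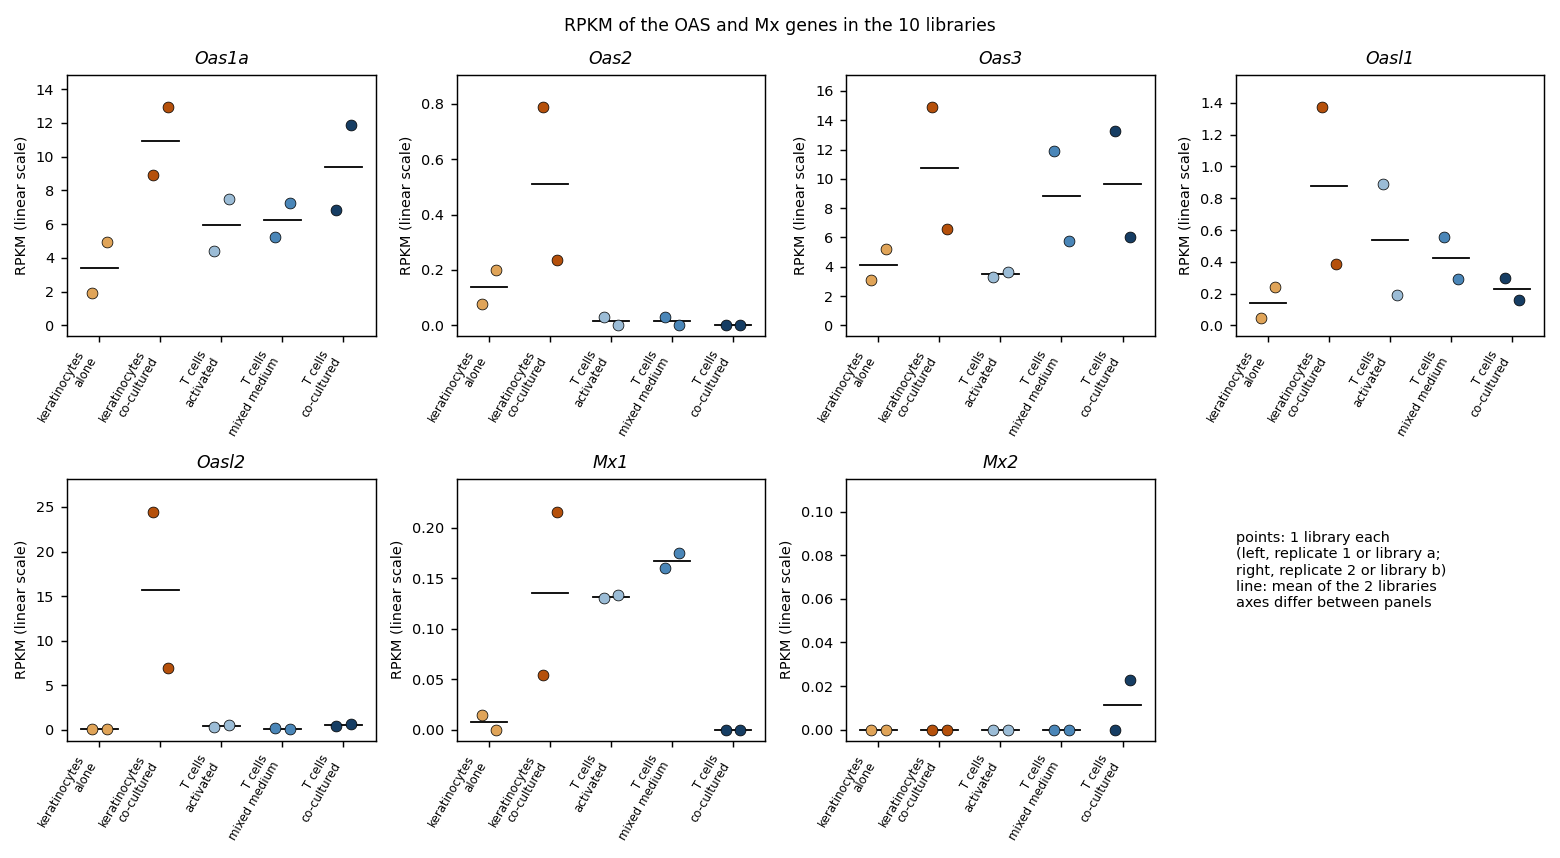
RPKM (linear axes that differ between panels) of the 7 genes in the 10 libraries. Points are libraries and lines the means of 2 libraries. Oasl2 is seen at 24.5 and 6.92 RPKM in co-cultured keratinocytes and below 1 RPKM elsewhere, whereas Oas1a and Oas3 are seen in all groups, and Mx2 with 1 read in a single T-cell library.

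The members were then set beside genes of the same pathway. The 13 IFIT and ISG15 genes, which code for RNA-binding effectors and the ISG15 modification, were higher in both co-cultured keratinocyte libraries in 12 of 13 cases, at a median log2 fold change of 3.32, compared with 1.89 for the 5 tested members and 0.02 for all genes. Ifit3 and Ifit1 stood highest among those with 5 or more RPKM, with log2 fold changes of 4.08 ± 0.84 and 3.89 ± 0.91 (SE). The OAS paralogues Oas1b to Oas1h were tested in 4 of 7 cases and were positive in all 4, at a median of 2.08, with 2 higher without overlap and 0 of 4 at an unadjusted p under 0.05. Of 11 guanylate binding proteins, GTPases that respond strongly to IFN-γ, 7 were higher without overlap, and the 10 tested had a median of 1.99. Gbp2 and Gbp3 led with 6.43 ± 0.84 and 6.25 ± 0.85. Of the interferon regulatory factors, Irf1 was at 3.83 ± 0.45 and Irf7 at 2.97 ± 0.36. The 8 interferon receptor and kinase genes had a median of -0.37 and the 5 dynamin relatives of -0.70, and none of these was higher without overlap. The 7 other sensors of double-stranded RNA had a median of 0.43, with 2 higher without overlap and Zbp1 at 3.73 ± 0.85. No gene named here passed an adjusted p under 0.05 (edgeR) in this comparison. At an unadjusted p under 0.05, which 7.20% of all genes reached, 3 of the 5 tested members, 10 of the 13 IFIT and ISG15 genes, and 5 guanylate binding proteins were found. Ifit1bl2 (1 and 0 reads alone, 19 and 36 after co-culture) and Oas1b (3 and 0, 12 and 18) had enough reads only through the co-cultured libraries. The same held for Oas2, Oasl1, and Oasl2. Their being higher was favoured by the filter. The medians and counts of the members and of these 2 lists thus cannot be weighed against all genes.

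Other cell types that make or answer interferons were looked for by their markers. Siglech, the defining marker of plasmacytoid dendritic cells, was at 0 in all 4 keratinocyte libraries, and the summed level of its list, 18.5 and 28.7 RPKM in keratinocytes alone compared with 129 and 66.4 RPKM after co-culture, was made up almost wholly of Bst2, itself an interferon target. Cd207 of Langerhans cells was at 0 in all 10 libraries. The summed level of 5 myeloid markers was 47.6 to 68.6 RPKM without and 37.5 to 63.9 RPKM with co-culture. Within this sum the markers went different ways. Cd68 was at 40.7 and 39.4 RPKM without and at 29.7 and 24.0 RPKM with co-culture. Lyz2 was at 6.69 and 27.4 compared with 7.30 and 37.6 RPKM, and Csf1r at 0.194 and 0.938 compared with 0.337 and 1.79 RPKM. Transcripts of interferon genes other than Ifng were hardly found in any library. Ifnb1, Ifnk, Ifne, and the 4 Ifna genes of the list were at 0 in all libraries, Ifnl2 and Ifnl3 did not exceed 0.113 RPKM, and Ifng was at 1.36 and 5.92 RPKM in co-cultured compared with 1.26 and 2.63 RPKM in keratinocytes alone. B-cell markers (4 genes) were found in the T-cell libraries. Their sum was 29.4 and 31.0 RPKM in activated T cells, 44.2 and 92.3 RPKM in mixed medium, and 16.6 and 27.2 RPKM in co-cultured T cells. The part of B-cell RNA in the comparisons of T cells was not tested.

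**Figure D2:**
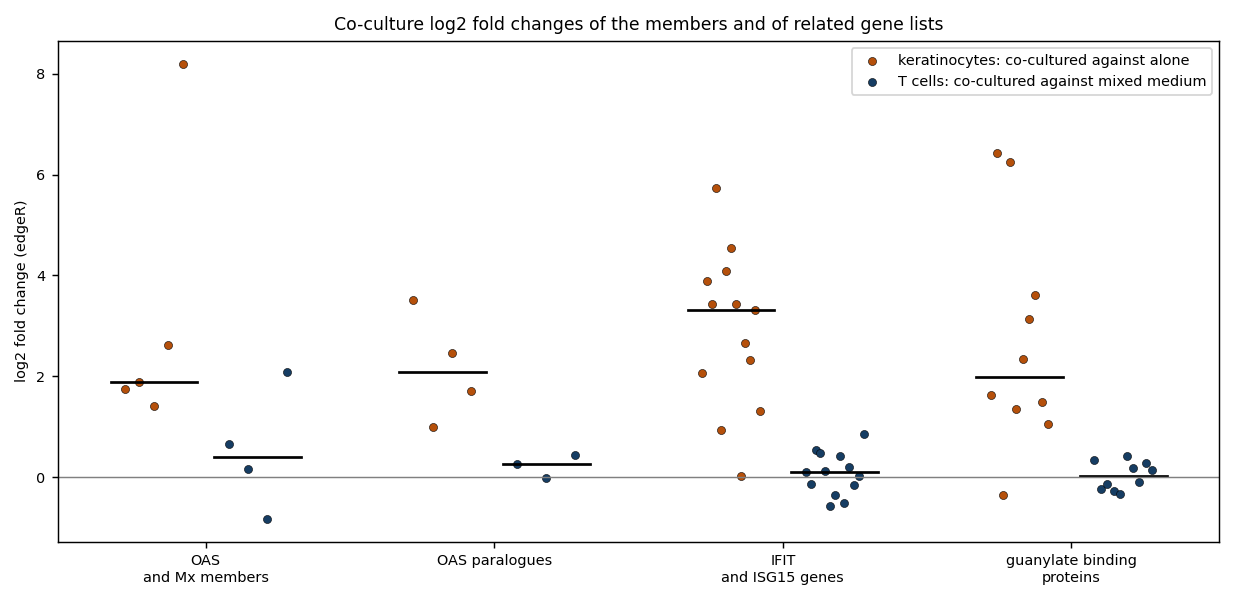
Log2 fold changes (edgeR) upon co-culture of single genes (points) and the median of each list (line), in keratinocytes (against keratinocytes alone) and in T cells (against mixed medium). In keratinocytes the medians lie between 1.89 and 3.32 and Oasl2 at 8.20, and in T cells between 0.01 and 0.41.

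For T cells, the first question was how the effectors differed between activated T cells and T cells after a further 1 d in mixed medium. Oas3 was higher in both libraries in mixed medium (as were 22.1% of all genes tested), Oasl2 was lower in both (as were 32.5%), and Oas1a and Oasl1 overlapped between the groups. The 6 T-cell libraries entered 1 fit, in which 4 members had enough reads for a test. None of them passed an adjusted p under 0.05 (edgeR), compared with 6.54% of all 11863 genes tested, and 1 of 4 (Oas3) had an unadjusted p under 0.05, compared with 25.0% of all genes. Medium and time after activation changed together in this comparison and cannot be told apart.

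Oas3 was read at 3.33 and 3.64 RPKM in activated T cells and at 11.9 (library a) and 5.76 RPKM (library b) in mixed medium. The activated libraries were close to each other, and those in mixed medium differed from each other far more. The log2 fold change was 1.46 ± 0.47 (SE) with an adjusted p of 0.103 (edgeR). With DESeq2, which called 16.4% of all genes, the adjusted p was 0.0203, and without the filter on low counts (12.7% called) 0.0176. Oas1a was read at 4.42 and 7.51 RPKM in activated T cells and at 5.22 and 7.23 RPKM in mixed medium, at a log2 fold change of 0.21 ± 0.52. Oasl2 was counted with 15 and 24 reads in activated T cells and with 8 and 5 reads in mixed medium (log2 fold change -1.53 ± 1.17, adjusted p of 0.473 in edgeR). Oasl1 was counted with 33 and 6 reads in activated T cells and with 19 and 11 reads in mixed medium (log2 fold change -0.20 ± 1.27). Both of these genes thus rested on few reads, and activated replicate 1 held most of the Oasl1 reads of its group.

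Co-cultured T cells were likewise set against activated T cells, which serve as the shared control of both comparisons. Oas3 was again higher in both libraries without overlap (23.6% of all genes), at 13.3 and 6.00 RPKM, with a log2 fold change of 1.63 ± 0.47 (SE). Its adjusted p was 0.0649 in edgeR (10.3% of all genes called), 0.00702 in DESeq2 (19.8% called), and 0.00539 without the filter (15.9% called). None of the 4 tested members was called by edgeR, and 1 of 4, Oas3, had an unadjusted p under 0.05, compared with 28.8% of all genes. None was lower without overlap, compared with 33.9% of all genes. Oas1a overlapped between the groups, at 6.86 and 11.9 RPKM in co-cultured T cells (log2 fold change 0.86 ± 0.52), as did Oasl2 with 20 and 28 reads (0.56 ± 1.12) and Oasl1 with 10 and 5 reads (-1.03 ± 1.31).

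The effect of the keratinocytes themselves was addressed by setting co-cultured T cells against those kept in mixed medium. None of the 4 tested members was called by edgeR, and none had an unadjusted p under 0.05, compared with 0.261% and 3.45% of all genes. DESeq2, which called 0.733% of all genes, and limma (0.835%) called none either. Oas3 differed by 0.17 ± 0.46 and Oas1a by 0.65 ± 0.52 on the log2 scale (SE), with overlapping libraries. Oasl2 was higher in both co-cultured libraries (14.2% of all genes), with 20 and 28 compared with 8 and 5 reads. The ratio of its pooled reads was 4.11 with a counting interval of 2.19 to 8.27, and the log2 fold change 2.09 ± 1.18 at an adjusted p of 1 (edgeR). Markers of keratinocytes moved in the same direction, with Krt14 at 61.6 and 16.8 RPKM in co-cultured T cells and at 0.419 and 1.06 RPKM in mixed medium. Krt14 thus reached 0.623% and 0.17% of its mean in co-cultured keratinocytes, and its part in the Oasl2 reads was not tested.

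Mx1, which was not among the tested genes, of which 13.1% were lower in both co-cultured libraries, went the other way. It was counted with 8 and 7 reads in activated T cells, with 9 and 11 reads in mixed medium, and with 0 reads in both co-cultured libraries. Against a floor of 3 reads per library, Mx1 was at least 2.99-fold lower in co-cultured T cells than in T cells in mixed medium, and at least 2.35-fold lower than in activated T cells. Mx1 did not pass the filter on low counts in the fit of the T cells, and without this filter its adjusted p was 1 (edgeR) for co-culture against mixed medium. Oas2 was at the edge of detection in T cells, with 2 and 0 reads in activated T cells, 2 and 0 reads in mixed medium, and 0 reads in both co-cultured libraries. Mx2 was counted with 1 read in co-cultured library b and with 0 reads in the other 9 libraries.

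**Figure D3:**
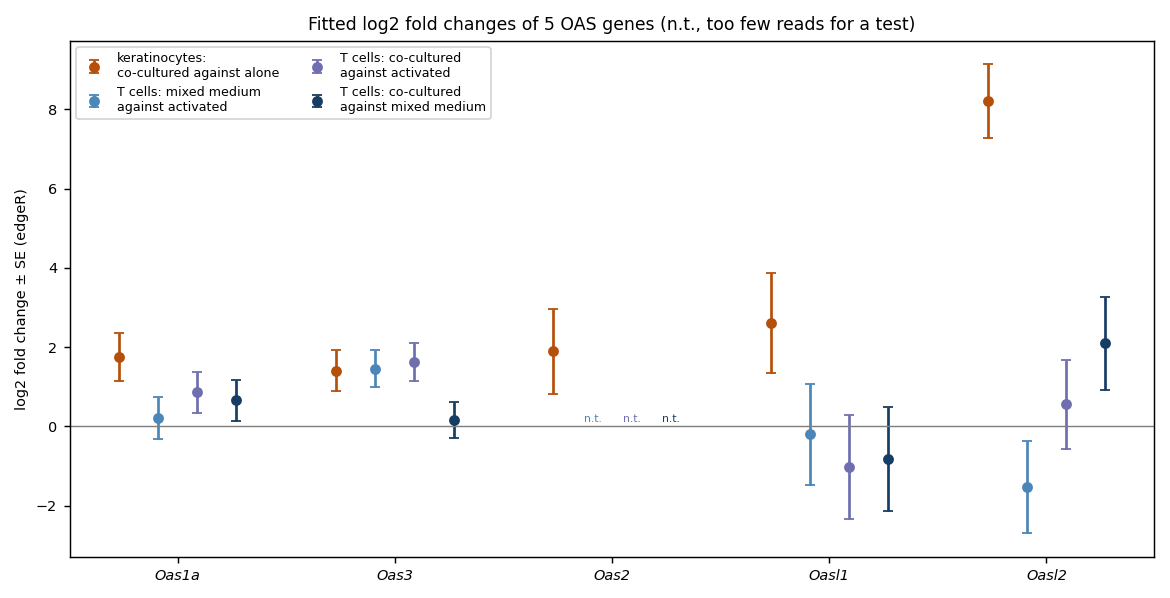
Log2 fold changes ± SE (edgeR) of Oas1a, Oas3, Oas2, Oasl1, and Oasl2 in 4 comparisons. All 5 genes lie above 0 in keratinocytes, with Oasl2 at 8.20, and in T cells Oas3 lies at 1.46 and 1.63 against activated T cells and at 0.17 against mixed medium.

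Genes of the pathway lists were also compared in T cells. Against activated T cells, Ifng fell from 613 and 589 RPKM in activated T cells to 5.95 and 7.20 RPKM in mixed medium and 3.26 and 6.20 RPKM with keratinocytes, at log2 fold changes of -6.36 and -6.77 and an adjusted p of 0.00345 and 0.00162 (edgeR). Uba7, the activating enzyme of ISG15, rose with log2 fold changes of 2.41 and 2.25, and Ifnar2, a subunit of the type I interferon receptor, with 1.66 and 1.65. Gbp9 and Gbp10 rose in both comparisons and Gbp6 in co-culture only by call, a difference that was not tested. Irf8 fell with log2 fold changes of -2.14 and -1.71. Of the 13 IFIT and ISG15 genes, 1 was called in each of the 2 comparisons, and of the 10 tested guanylate binding proteins 2 and 3, beside the 6.54% and 10.3% of all genes called. No gene of the pathway lists was called for co-culture against mixed medium.

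It was then tested whether co-culture acted differently in both cell types, by subtracting the effect in T cells (against mixed medium) from that in keratinocytes (against alone) in a fit of 8 libraries. Only the T-cell side of this difference had a control labelled as kept in the medium of the co-culture. All 6 tested members had a positive difference, with a median of 4.22 on the log2 scale compared with 0.02 for all genes. This median was 2.41 without library a in mixed medium and 0.94 with limma on log2(RPKM + 1). It includes Oas2 and Mx1, which had 0 reads in both co-cultured T-cell libraries. These 2 genes had enough reads for the fit only with the help of co-cultured keratinocytes, a group whose high level makes the difference positive. Their sign was thus favoured by the filter, and the counts of the 6 members cannot be weighed against all genes. None passed an adjusted p under 0.05 in edgeR, compared with 0.576% of all genes, while 2 of 6, Oasl2 and Mx1, had an unadjusted p under 0.05, compared with 7.06%. Oasl2 differed by 6.08 ± 1.10 (SE) at an adjusted p of 0.0836. Its adjusted p was 0.000175 in DESeq2 (2.71% of all genes called), 0.0101 without the filter (1.23% called), and 0.0383 without replicate 2 of the co-cultured keratinocytes (0.510% called). With any other of the 8 libraries left out it was 0.129 to 0.285. The differences of Oas1a (1.09 ± 0.85) and Oas3 (1.21 ± 0.76) were within 2 standard errors. The value for Mx1 (10.31) depends on 0 reads in co-cultured T cells and is no estimate of its size.

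Before any contact the cell types were compared by keratinocytes alone against activated T cells. Oasl2 was the only member called by edgeR, among 35.5% of all genes. With 2 and 4 compared with 15 and 24 reads it was lower in keratinocytes, at a log2 fold change of -2.73 ± 0.83 (SE) and an adjusted p of 0.032 (edgeR). The call was lost without either keratinocyte library, with adjusted p of 0.165 (without replicate 1) and 0.065 (without replicate 2), and was lost without activated replicate 2 (0.119). Mx1 was lower in keratinocytes without overlap (1 and 0 compared with 8 and 7 reads), as were 35.1% of all genes, and Oas2 was higher (6 and 14 compared with 2 and 0 reads), as were 38.7%. Oas1a, Oas3, and Oasl1 had overlapping libraries and were not called by edgeR. The ratios of their pooled reads were 0.572, 1.18, and 0.244. The counting intervals were 0.482 to 0.678, 1.05 to 1.32, and 0.113 to 0.487, and these do not include the spread between libraries.

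Across the 5 groups, each member had its own order of levels in RPKM. Oas1a was highest in co-cultured keratinocytes (10.9 ± 2.82), followed by co-cultured T cells (9.37 ± 3.55), T cells in mixed medium (6.22 ± 1.42), activated T cells (5.97 ± 2.19), and keratinocytes alone (3.43 ± 2.12; SD, n = 2 each), and every group overlapped its neighbour in this order. Oas3 followed the order co-cultured keratinocytes (10.7 ± 5.89), co-cultured T cells (9.64 ± 5.15), T cells in mixed medium (8.83 ± 4.33), keratinocytes alone (4.15 ± 1.46), and activated T cells (3.48 ± 0.222). Only the step from mixed medium to keratinocytes alone separated neighbours without overlap. Oasl2 was the gene with the clearest steps, from co-cultured keratinocytes through co-cultured (0.511 ± 0.146), activated (0.397 ± 0.170), and mixed-medium T cells (0.125 ± 0.050) to keratinocytes alone, with an overlap between co-cultured and activated T cells only. Oas2 had both keratinocyte groups above all T-cell groups, on 6 and 14 reads in keratinocytes alone and at most 2 reads in a T-cell library. Its difference between keratinocytes alone and activated T cells was not called (adjusted p of 0.196 in edgeR). Oasl1 stayed at or below 1.37 RPKM, and each of its groups overlapped the next. Mx1 had its highest mean in mixed medium (0.160 and 0.175 RPKM), and replicate 2 of the co-cultured keratinocytes was its highest library (0.216 RPKM).

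The genes whose log2(RPKM + 1) values followed each member most closely over the 10 libraries were searched among the 8744 genes whose mean reached 5 RPKM in at least 1 group. These correlations describe libraries that share cell type and depth. Oasl2 was followed by Serping1 (Pearson's r of 0.989), Sectm1b (0.985), and Cxcl9 (0.980), and the top of the list for Oas2 held Sectm1b (0.944) and Serping1 (0.923) as well. Oas3 was followed by Tapbp (0.905), Dhx58 (0.901), and Ifit1bl1 (0.865), and Oasl1 by Mov10 (0.932), Wars (0.873), and Parp14 (0.853). Oas1a was followed by Ndufs3 (0.903), Surf4 (0.900), and Anapc11 (0.888), and Mx1 by Gclm (0.846). Among the members, Oas2 and Oasl2 were the closest pair with an r of 0.885, while Oas1a and Oas3 reached 0.406, and Mx1 stayed between -0.377 and 0.268 with each of the others.

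Oas1a is the only member whose reads were shared with another gene to a large extent. Of its 1827 distinct stretches of 59 bases, the read length, 53.3% were also found in transcripts of its paralogue Oas1g, compared with at most 3.39% for any other member with any other gene. Accordingly, 37.9% to 72.1% of the Oas1a reads mapped uniquely, compared with 96.9% or more for Oas3. On uniquely mapped reads alone, Oas1a was counted with 34 and 68 reads in keratinocytes alone and with 132 and 200 reads in co-cultured keratinocytes, and its log2 fold change was 1.92 ± 0.61 (SE). In co-cultured T cells against activated T cells it was 0.41 ± 0.68 on unique reads, compared with 0.86 ± 0.52 on all reads. The level of Oas1a in T cells thus depends on how shared reads were assigned, and the share of Oas1g in them is uncertain.

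**Figure D4:**
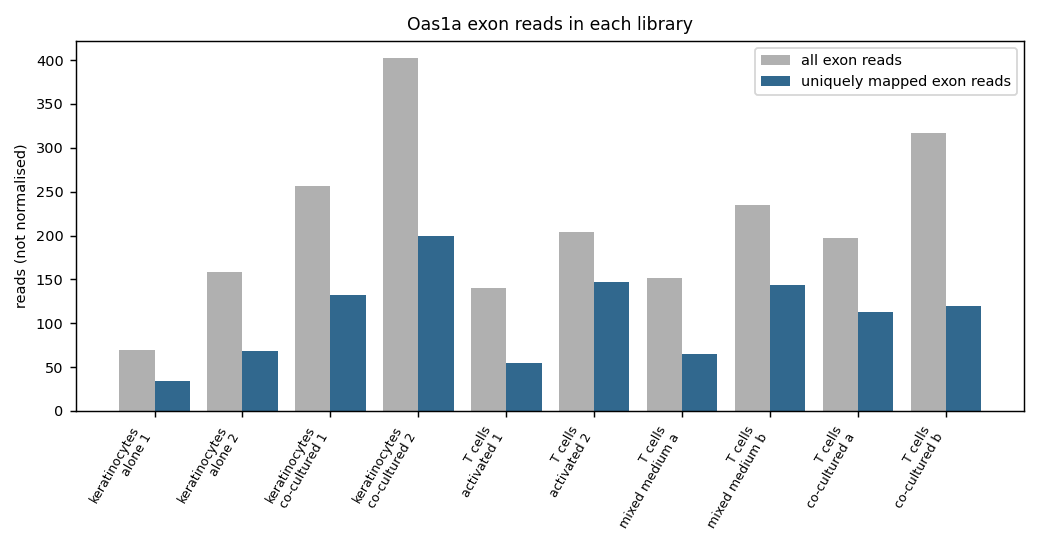
Exon reads of Oas1a in each library (linear axis, not normalised), all reads and uniquely mapped reads. Unique reads are highest in replicate 2 of the co-cultured keratinocytes (200), followed by activated replicate 2 (147), library b in mixed medium (144), and replicate 1 of the co-cultured keratinocytes (132), and in co-cultured T cells unique reads are at 113 and 120 whereas all reads are at 197 and 317.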

How the data were processed

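RNA of keratinocytes and splenic CD8+ T cells was sequenced by the authors as single-end reads of 59 bases on a HiSeq2500 after NEBNext Ultra II library preparation, and aligned to GRCm38 in the CLC Genomics Workbench with its default RNA-Seq settings. The annotation release is not given in the sources used here, and neither is a strand setting. The authors deposited, per library and gene, counts of exon reads and of uniquely mapped exon reads without normalization, together with intron and junction reads and RPKM values. RPKM was found to equal exon reads scaled to exon length in kilobases and to mapped reads in units of 1e6.

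Groups were taken from the labels. The libraries of T cells in mixed medium and of co-cultured T cells are named a and b, letters that pair nothing. Log2 fold changes and p-values came from edgeR 4.0.16 (R 4.3.3; filterByExpr, TMM, glmQLFit, and glmQLFTest) on all genes with Benjamini-Hochberg adjustment, and a gene was called at an adjusted p under 0.05. The standard error is the log2 fold change divided by the square root of F. The 4 keratinocyte, the 6 T-cell, 8, or all 10 libraries entered the fits of keratinocytes, T cells, the difference of co-culture effects, and keratinocytes alone against activated T cells. An exact permutation test of 2 against 2 libraries cannot give a two-sided p under 0.333. The scripts were tested on simulated data. The counts of replicates differed beyond sampling noise, with a chi-square per degree of freedom of 89.1 to 199. Ratios of pooled reads carry exact (Clopper-Pearson) 95% intervals, and floors are 3 reads.

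As alternatives, RLE factors or plain library sizes, no filter or a minimum of 10 reads in each library, uniquely mapped reads, other sets of libraries, a replicate block, the omission of each library, DESeq2 1.42.0, and limma 3.58.1 with a pseudocount of 1 or 0.1 RPKM were tried. Genes of the pathway lists were named when they were called or were among the 2 largest changes of their list with a mean of 5 or more RPKM, and of these the text gives those that bear on the members. The members and all lists were chosen with earlier results of these data known. Promoters (250 bases before the start) came from RefSeq (4 of 7 members matched), shared stretches from GENCODE vM21 transcripts. Tables were made with pandas 2.3.3 and scipy 1.17.1 in Python 3.11.15, and plots with matplotlib 3.10.9. Some genes of the lists are not reported here.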

Additional observations from a re-analysis of the deposited data

Results flagged for a closer look

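The few reads of Mx1 were more after co-culture in keratinocytes and fewer in T cells, and neither change was called. In keratinocytes, Mx1 had 1 and 0 reads without and 3 and 13 reads after co-culture, compared with 9 and 11 reads in T cells in mixed medium and 0 reads in both co-cultured libraries. The fitted difference of the effects was 10.31 on the log2 scale, with an adjusted p of 0.386 (edgeR), and its size rests on the libraries at 0.

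Reads on introns were not used in the comparisons, and a few of them differed between groups without overlap. They are not normalised, at 14149984 to 18981912 mapped reads per library. Oas3 had 54 intron reads in T cells in mixed medium (18 and 36) and 85 in co-cultured T cells (28 and 57), compared with 12 and 9 reads in activated T cells. Oasl2 had 23 in co-cultured keratinocytes (5 and 18) compared with 0 in keratinocytes alone, and 17 in co-cultured T cells (3 and 14) compared with 0 in T cells in mixed medium. In both of these groups the library with more Oasl2 intron reads was replicate 2 or library b. Activated T cells held 6 and 6 Oasl2 intron reads. For Mx2, 11 intron reads were counted in T cells in mixed medium (5 and 6) compared with 2 and 0 in activated T cells. No exon read was found in either group. Mx2 intron reads were also counted in co-cultured T cells (0 and 10), co-cultured keratinocytes (0 and 7), and keratinocytes alone (0 and 4). No other gene of the deposited tables overlaps Oas3, Oasl2, or Mx2. The source of the intron reads was not tested.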

How the results depend on the processing

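With 2 libraries per group, these results depend on the spread assigned to them. For keratinocytes co-cultured against alone, 0 members were called, and 1 (Oasl2) with DESeq2, without a filter, or in the fit of all 10 libraries. For T cells in mixed medium and for co-cultured T cells against activated T cells, 0 were called, and 1 (Oas3) with DESeq2 or without a filter in either comparison. For the difference of the co-culture effects, 0 were called, and 1 (Oasl2) with DESeq2 or without a filter. For keratinocytes alone against activated T cells, 1 (Oasl2) was called, and 0 with 10 reads required in every library, with limma at either pseudocount, or in a fit of these 2 groups only. With each library left out in turn, the count ranged from 0 to 1 for keratinocytes co-cultured against alone, for the difference of the effects, and for keratinocytes alone against activated T cells, and was 0 in the 3 comparisons of T cells. For co-culture against mixed medium in T cells it was 0 in each alternative run. In the alternatives not named here the counts were those of the report.

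The keratinocyte libraries carry shared replicate numbers (2 pairs), and the labels do not say whether a number marks a shared culture. Deviations from the group means of libraries with the same number correlated with an r of 0.558 across genes. With the replicate number as a block, 0 members were called, and Oasl2 had a log2 fold change of 8.08 at an adjusted p of 0.0508 (edgeR). The block raised the number of genes with an unadjusted p under 0.05 from 901 to 2748.

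No log2 fold change of a member turned its direction except when a library was left out. In that case Oas1a ranged from -0.14 to 0.71 and Oasl1 from -0.89 to 1.24 in mixed medium against activated T cells, and Oasl1 from -1.72 to 0.40 in co-cultured against activated T cells. Oas3 ranged from -0.39 to 0.66 for co-culture against mixed medium in T cells and from -0.13 to 0.66 for keratinocytes alone against activated T cells. Among the named genes of the lists, this held for Pde12 (-0.40 to 0.11, keratinocytes alone against activated T cells) and Dnm2 (-0.24 to 1.26, mixed medium against activated T cells). For co-culture against mixed medium it held for Dnm2 (-1.34 to 0.57), Dnm1l (-0.77 to 0.084), Adar (-1.01 to 0.54), Ifng (-1.07 to 0.052), Gbp5 (-0.21 to 0.84), and Gbp10 (-0.28 to 0.76). The causes were not tested.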

Other observations

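Oas1g, the paralogue that shares reads with Oas1a, was counted with 0 reads in activated replicate 1, in library a in mixed medium, and in co-cultured library b, and with 26, 17, and 22 reads in the other 3 T-cell libraries. In the libraries without Oas1g reads, 39.3%, 42.8%, and 37.9% of the Oas1a reads mapped uniquely, compared with 72.1%, 61.3%, and 57.4% in the others. The sum of both genes was 8.33 and 15.97 reads per 1e6 mapped reads in activated T cells, 9.84 and 14.6 in mixed medium, and 14.4 and 22.4 in co-cultured T cells. In keratinocytes it was 4.11 and 10.4 alone and 21.4 and 25.0 after co-culture, where the groups did not overlap for the sum either.

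The replicate libraries of the keratinocytes differed in Oas3 by more than the median of genes of like exon length. Replicate 2 stood below replicate 1 by 1.18 on the log2 scale in co-cultured keratinocytes (a value of -1.18), where the median of 1309 genes within 20% of its exon length was -0.46, and above it by 0.74 in keratinocytes alone, where the median of 1447 genes was -0.25. The lower quartile of these genes was -0.99 in co-cultured keratinocytes. In activated T cells the value was 0.13 and the median of 1256 genes -0.39. Between libraries b and a it was -1.05 in mixed medium and -1.15 in co-cultured T cells, beside medians of -0.34 and -0.40. For Oasl2 the value was -1.82 in co-cultured keratinocytes, compared with a median of -0.22 over 1766 genes. For Oas1a it was 0.53, compared with 0.01 over 1292 genes. The cause was not tested.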
